A study of Mus musculus with 12 samples.

Results

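The genes described here encode integrin subunits that bind extracellular matrix: the alpha-v subunit Itgav with the beta subunits it can pair with (Itgb1, Itgb3, Itgb5, Itgb6 and Itgb8), and the alpha subunits Itga1, Itga5, Itga8 and Itga11. They were taken by name from the deposited count table and make up 10 of its 36528 gene IDs; all 10 were found, and 9 passed the filter on low counts and were tested. RNA was measured by sequencing in whole liver of 12 mice, without separation of cell types. The CCl4 group of 6 mice was injected intraperitoneally with carbon tetrachloride, a solvent made toxic by metabolism in hepatocytes, and the oil group of 6 with its vehicle, corn oil, with 3 injections a week over 6 weeks in each case. The sources used here give no strain, sex, age or genetic change.

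Integrins are receptors at the cell surface made of an alpha and a beta chain, and the pair decides which matrix protein is bound. Alpha-v integrins and the pairs of Itga5 or Itga8 with Itgb1 recognise the RGD peptide motif in proteins such as fibronectin and vitronectin, and some alpha-v integrins release active TGF-beta from its latent complex, a step known to drive scarring in liver. Itga1 and Itga11 pair with Itgb1 to bind collagens.

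The stretches of DNA before the RefSeq start sites (build GRCm38.p6) are shown for the tested members that rose after CCl4, Itga8 and Itgav. Also shown are those of Itgb6, which was not tested but whose groups did not overlap, and of Itgb1, whose level hardly differed. Each is written 5′ to 3′ on the gene's own strand, in lower case, and capitals mark the letters of a motif. The Itga8 stretch lies at chr2:12301986-12302194 on the minus strand, that of Itgav at chr2:83724147-83724396 on the plus strand, that of Itgb6 at chr2:60722644-60722853 on the minus strand and that of Itgb1 at chr8:128685404-128685653 on the plus strand. The Itgav window belongs to a start site inside the annotated gene span and touches no annotated exon. For Itga8 the 41 bases inside the gene span are left out and 209 are printed. For Itgb6 the 40 bases in an exon are left out and 210 are printed. These 2 stretches therefore stop short of their start sites.
Itga8: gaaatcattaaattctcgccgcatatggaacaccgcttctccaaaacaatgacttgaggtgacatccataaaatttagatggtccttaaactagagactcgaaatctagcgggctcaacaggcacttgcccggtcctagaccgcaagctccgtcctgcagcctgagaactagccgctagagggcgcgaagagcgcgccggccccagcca
Itgav: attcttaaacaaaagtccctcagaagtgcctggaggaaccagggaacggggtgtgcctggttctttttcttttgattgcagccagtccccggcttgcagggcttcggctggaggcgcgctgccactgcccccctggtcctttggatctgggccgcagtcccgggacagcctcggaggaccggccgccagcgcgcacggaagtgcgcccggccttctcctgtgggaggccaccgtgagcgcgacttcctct
Itgb6: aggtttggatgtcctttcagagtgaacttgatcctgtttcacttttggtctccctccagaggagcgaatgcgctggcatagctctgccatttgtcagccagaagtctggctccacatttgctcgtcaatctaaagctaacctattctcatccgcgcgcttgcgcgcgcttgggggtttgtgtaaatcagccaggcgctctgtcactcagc
Itgb1: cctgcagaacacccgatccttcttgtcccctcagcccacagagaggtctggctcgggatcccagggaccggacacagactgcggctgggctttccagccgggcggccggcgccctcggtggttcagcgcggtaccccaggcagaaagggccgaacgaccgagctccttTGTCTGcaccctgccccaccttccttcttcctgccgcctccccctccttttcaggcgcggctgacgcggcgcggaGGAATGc

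The search covered the 250 bases before each listed start site on both strands. It looked for TGANTCA (a motif of AP-1), CAGACA (of SMAD proteins), GGAATG (of TEAD proteins) and the CArG box of SRF. No start site was listed for Itgb3, so that gene was not searched. Itgb1 held CAGACA, read on the other strand, from 82 to 77 bases before the start and GGAATG from 7 to 2 bases before it. The Itga8, Itgav and Itgb6 stretches printed here held none of the 4 motifs. A further Itgb6 start site, inside the gene span, had a CArG box from 50 to 41 bases before it. Itgb8 had CAGACA from 196 to 191 bases before its start, in a window whose 250 bases all lay in an exon. Neither window is printed. Of the 32851 RefSeq promoters with a window of 250 bases, 17.1% held CAGACA, 12.6% GGAATG, 6.75% TGANTCA and 1.47% a CArG box. These matches describe letters only, and no binding was measured.

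Of the 9 tested members 2 rose after CCl4, Itgav and Itga8, and none fell. The test was edgeR's quasi-likelihood test, with p-values adjusted by the Benjamini-Hochberg method over all 16032 genes tested and a threshold of 0.05. Over all tested genes 39.0% passed, 20.6% as rises and 18.4% as falls, so 2 rises among 9 genes is a share near the background. The median log2 fold change of the 9 members was 0.20, beside 0.01 over all genes tested. Only Itga8 among the 9 had every CCl4 library above every oil library, which was the case for 12% of all tested genes. In whole tissue, more cells of a kind and more RNA in each such cell cannot be told apart. Levels are in CPM, the read count of a gene relative to the TMM-scaled total of its library.

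**Figure D1:**
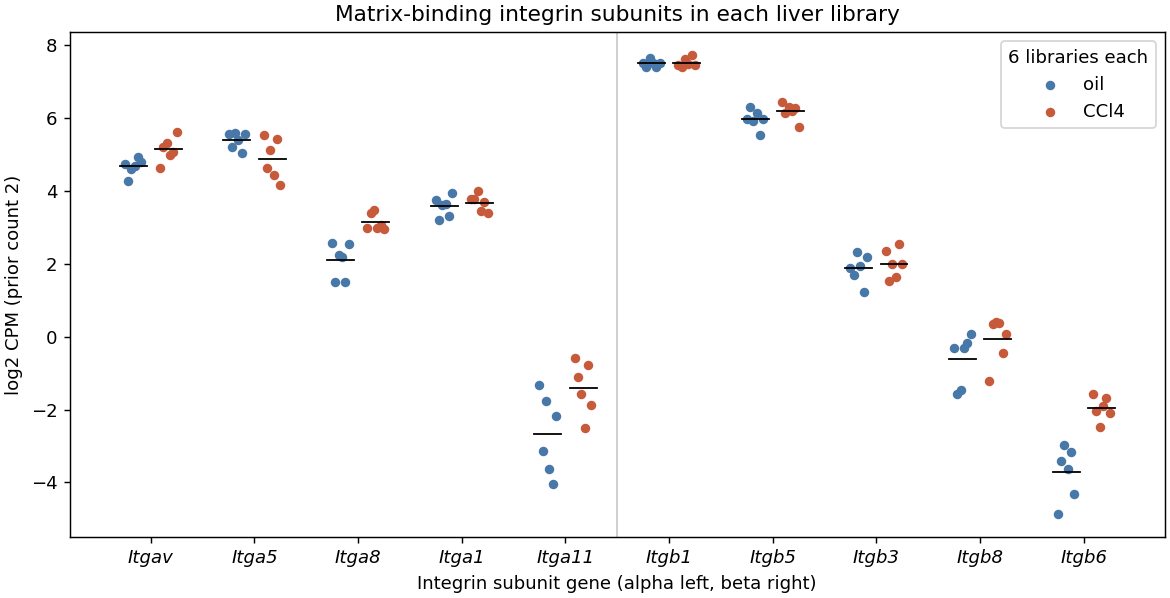
Log2 CPM (prior count of 2, vertical axis) of the 10 integrin subunit genes in each of the 6 oil and 6 CCl4 libraries, 1 point per library. The Itga8 and Itgb6 points of the CCl4 libraries all lie above those of oil, and the Itgb1 points of both groups lie together between 169 and 211 CPM.

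Itgav (gene ID 16410, chromosome 2, 83722303 to 83806917, plus strand) encodes the alpha-v chain shared by all the alpha-v integrins. It stood at 26.7, 19.3, 24.2, 25.5, 30.5 and 27.5 CPM in oil replicates 1 to 6 and at 24.7, 37.1, 39.9, 31.4, 33.5 and 48.6 CPM in CCl4 replicates 1 to 6. Of the CCl4 libraries 5 lay above every oil library, while CCl4 replicate 1 lay within the oil range. The means were 25.6 ± 3.76 in oil and 35.9 ± 8.14 CPM in CCl4 (SD, n = 6 each), and the fitted rise was 1.40-fold (log2 fold change 0.49 ± 0.16 SE, 95% interval 0.14 to 0.83; edgeR adjusted p = 0.0277). The call was lost in 7 of 12 fits that left out 1 library (CCl4 replicate 2, 3 or 6 removed, or any of oil replicates 1, 2, 3 and 4), where the log2 fold change over all 12 ran from 0.38 to 0.56 and the adjusted p from 0.00774 to 0.0666.

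The libraries also differed in how the level of a gene depended on the length of its transcript. The length slope, the change in log2 CPM per doubling of transcript length relative to the mean of all libraries, ran from -0.12 to 0.18 in oil and from -0.26 to 0.13 in CCl4. The highest Itgav level of each group was in the library with its lowest slope, CCl4 replicate 6 at -0.26 and oil replicate 5 at -0.12. The other oil libraries did not keep that order. Oil replicate 2, with the next lowest slope of its group, had the lowest Itgav level. Oil replicate 6, with the highest slope, had 27.5 CPM, the next highest level of the group. From the lowest slope to the highest, CCl4 replicates 6, 2, 4, 3, 1 and 5 had 48.6, 37.1, 31.4, 39.9, 24.7 and 33.5 CPM. The median slope was 0.08 in oil and -0.07 in CCl4. With the slope as a covariate the Itgav log2 fold change was 0.35 and the call was lost (edgeR adjusted p = 0.0598). Without CCl4 replicate 6 and oil replicate 5 together, an alternative chosen after seeing the data, it was 0.43 and still passed (adjusted p = 0.0295). What the slope stands for in these libraries was not tested.

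**Figure D2:**
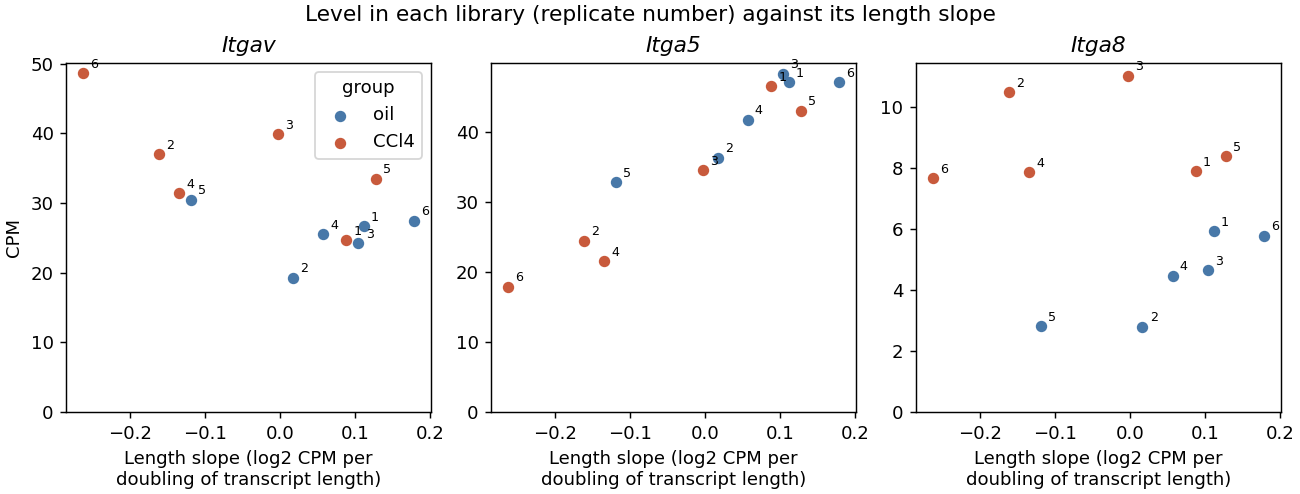
Level in CPM (vertical axes) of the members named above each panel against the length slope of each library (horizontal axes), with points numbered by replicate and coloured by group. Itgav is highest in CCl4 replicate 6, at the lowest slope of -0.26, and Itga5 is lowest there, at 17.9 CPM.

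Among the beta subunits that pair with alpha-v, Itgb1 (ID 16412, chromosome 8, 128685654 to 128733579, plus strand), the chain common to most integrins, did not pass the test. It ran from 169 through a median of 183 to 198 CPM in oil and from 169 through 177 to 211 CPM in CCl4, so the groups overlapped almost wholly. Its log2 fold change was 0.02 ± 0.10 (SE), with a 95% interval from -0.19 to 0.24 (edgeR adjusted p = 0.867).

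Itgb5 (ID 16419, chromosome 16, 33829665 to 33949338, plus strand), the beta chain of a vitronectin receptor, ran from 46.1 through a median of 62.9 to 79.1 CPM in oil and from 53.9 through 75.5 to 86.5 CPM in CCl4. The groups overlapped, and only CCl4 replicate 1 lay above every oil library. The log2 fold change was 0.20 ± 0.14 (SE; 95% interval -0.11 to 0.51; edgeR adjusted p = 0.283). The lowest Itgb5 levels of each group were in the same libraries of lowest length slope in which Itgav was highest, and once the slope entered the fit Itgb5 passed as a rise, at 0.34 on the log2 scale (adjusted p = 0.0284).

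Itgb3 (ID 16416, chromosome 11, 104608000 to 104670476, plus strand), known from platelets, endothelium and osteoclasts, was low. It ran from 2.31 through a median of 3.72 to 4.99 CPM in oil and from 2.85 through 3.93 to 5.74 CPM in CCl4, with overlapping groups. The log2 fold change was 0.13 ± 0.22 (SE; 95% interval -0.33 to 0.59; edgeR adjusted p = 0.657). Markers of platelets and megakaryocytes (Pf4, Ppbp, Gp9, Gp1bb and Gp6) summed to between 1.24 and 1.95 CPM in oil and between 7.46 and 18.4 CPM in CCl4. Of these, 2 of the 3 that were tested rose. Pf4 had means of 0.60 CPM in oil and 7.57 CPM in CCl4, and Gp1bb 0.57 and 2.71 CPM. Ppbp went the other way, from 0.36 to 0.25 CPM, and did not pass (edgeR adjusted p = 0.208). Gp9 and Gp6 were too low to be tested. Itga2b, the alpha chain that pairs with Itgb3 on platelets, had means of 2.74 ± 0.41 in oil and 3.05 ± 0.57 CPM in CCl4 (SD, n = 6 each; adjusted p = 0.481).

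Itgb8 and Itgb6 encode the beta chains of the alpha-v integrins best known for activating latent TGF-beta. Itgb8 (ID 320910, chromosome 12, 119162803 to 119238276, minus strand) had 38, 15, 14, 33, 33 and 66 counts in oil replicates 1 to 6 and 25, 84, 107, 81, 53 and 56 in CCl4 replicates 1 to 6. In CPM that was 0.77, 0.30, 0.33, 0.77, 0.86 and 1.02 in oil and 0.39, 1.24, 1.28, 1.27, 0.70 and 1.03 in CCl4. CCl4 replicates 2, 3, 4 and 6 lay above every oil library, replicate 6 only just, and CCl4 replicates 1 and 5 lay among them. The log2 fold change was 0.54 ± 0.35 (SE), with a wide 95% interval from -0.21 to 1.29 (edgeR adjusted p = 0.235).

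Itgb6 (ID 16420, chromosome 2, 60598292 to 60722603, minus strand), in healthy organs a chain of epithelial cells, was the lowest member and did not pass the filter on low counts. It had 0, 3, 4, 2, 3 and 1 counts in oil replicates 1 to 6 and 19, 14, 12, 15, 21 and 11 counts in CCl4 replicates 1 to 6, in all 13 against 92. Every CCl4 library lay above every oil library, and the mean CPM was 4.65 times that of oil, at 0.23 ± 0.057 against 0.049 ± 0.036 (SD, n = 6 each). In oil replicate 1, with no count, 3 counts would be 0.0612 CPM. An exact two-sided permutation test of the CPM over all 924 divisions of the 12 libraries gave p = 0.00216, the smallest it can give. Full separation of the groups fixes that value, so it adds nothing to the lack of overlap. It was not adjusted, and 12% of all tested genes had every CCl4 library above every oil library. In the same edgeR fit without a filter the log2 fold change was 2.23 (adjusted p = 0.00362).

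Markers of bile duct cells, the epithelium in liver that is known to express Itgb6 after injury, stood beside it as follows. The markers Krt19, Krt7, Epcam, Sox9 and Cldn4 summed to between 9.46 and 24.4 CPM in oil and between 18.1 and 25.1 CPM in CCl4, and 2 of the 5 rose, Epcam and Cldn4. Oil replicate 6 had the highest sum of its group, 24.4 CPM, and 1 count of Itgb6. The part of these cells in the Itgb6 difference was not tested.

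**Figure D3:**
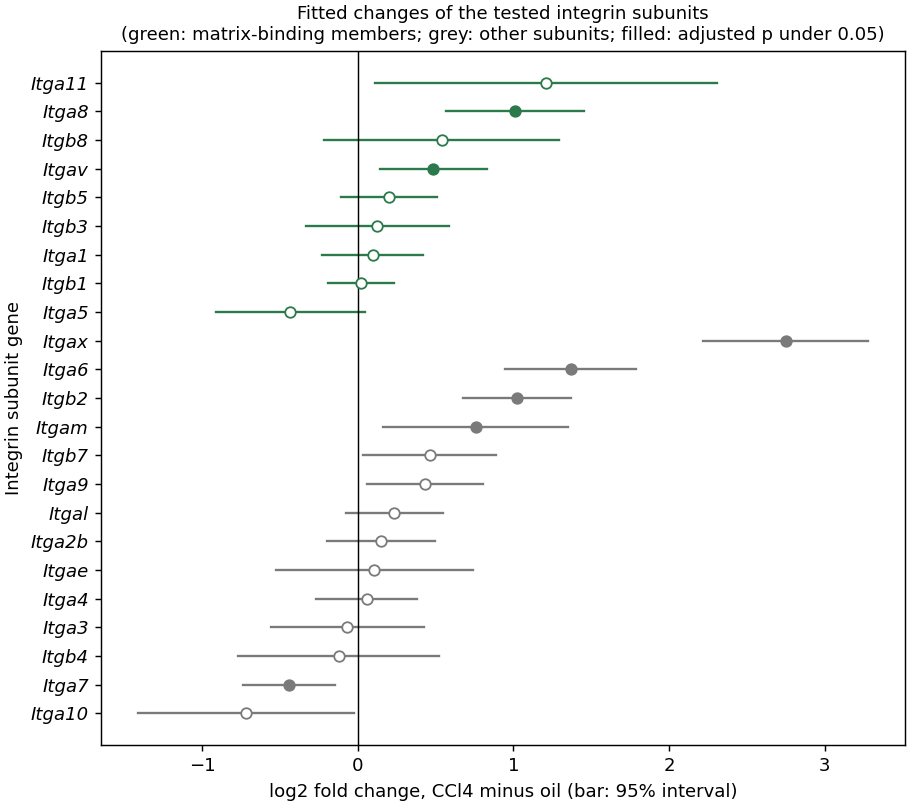
Fitted log2 fold change, CCl4 minus oil (horizontal axis), of each tested integrin subunit with its 95% interval. Members are green and other subunits grey, and filled points passed an adjusted p of 0.05; among members these are Itga8 at 1.01 and Itgav at 0.49.

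Itga8 (ID 241226, chromosome 2, 12106632 to 12301985, minus strand), a receptor for nephronectin and fibronectin found on stellate cells and other mesenchymal cells, had the smallest p of the 9 tested members. It stood at 5.93, 2.79, 4.66, 4.47, 2.81 and 5.79 CPM in oil replicates 1 to 6 and at 7.91, 10.5, 11.0, 7.87, 8.39 and 7.67 CPM in CCl4 replicates 1 to 6. The lowest CCl4 library was above the highest oil library. The means were 4.41 ± 1.38 and 8.89 ± 1.48 CPM (SD, n = 6 each), a 2.01-fold rise (log2 fold change 1.01 ± 0.21 SE, 95% interval 0.57 to 1.45; edgeR adjusted p = 0.00157). It passed in all 12 fits that left out 1 library, at 0.90 to 1.10 on the log2 scale (adjusted p from 0.00153 to 0.00588).

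A noncoding transcript, E030013I19Rik, lies on the opposite strand within the Itga8 span. It averaged 0.41 CPM and rose too (log2 fold change 1.84, edgeR adjusted p = 0.00127); if strand was not used in counting, its reads and those of Itga8 could not be told apart where they overlap. Markers of myofibroblasts, the cells that stellate cells become in injury, summed to between 31.2 and 67.8 CPM in oil and between 178 and 315 CPM in CCl4, and 5 of 6 rose. Markers of quiescent stellate cells summed to between 180 and 259 CPM in oil and between 170 and 282 CPM in CCl4, with 2 of 6 risen and 2 fallen. Their part in the Itga8 difference was not tested.

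Itga5 (ID 16402, chromosome 15, 103344286 to 103366791, minus strand), the alpha chain of the classical fibronectin receptor, was lower on average after CCl4 but did not pass. It stood at 47.2, 36.4, 48.4, 41.9, 32.9 and 47.2 CPM in oil replicates 1 to 6 and at 46.6, 24.5, 34.6, 21.5, 43.1 and 17.9 CPM in CCl4 replicates 1 to 6. CCl4 replicates 2, 4 and 6 lay below every oil library, while CCl4 replicates 1, 3 and 5 lay within the oil range. Those 3 low libraries had the lowest length slopes of all 12, at -0.16, -0.14 and -0.26, and in oil the lowest Itga5 level was likewise in the library of lowest slope, replicate 5.

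The Itga5 log2 fold change was -0.43 ± 0.22 (SE; 95% interval -0.91 to 0.05; edgeR adjusted p = 0.137), and -0.14 with the slope as a covariate (adjusted p = 0.238). It passed as a fall without CCl4 replicate 1 (-0.61, adjusted p = 0.0311), without CCl4 replicate 5 (-0.58, adjusted p = 0.0457) and in limma-voom with quality weights (-0.60, adjusted p = 0.00944). So whether the Itga5 fall passed depended on the library and the model.

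Of the collagen receptor chains, Itga1 (ID 109700, chromosome 13, 114958079 to 115101964, minus strand), found on stellate cells, smooth muscle and endothelium, did not pass. It ran from 9.20 through a median of 12.3 to 15.2 CPM in oil and from 10.4 through 13.3 to 15.8 CPM in CCl4. The groups overlapped, and the log2 fold change was 0.10 ± 0.15 (SE; 95% interval -0.23 to 0.42; edgeR adjusted p = 0.629). The gene Pelo lies within the Itga1 span on the same strand and averaged 20.4 CPM, with a log2 fold change of 0.12 (adjusted p = 0.638), so reads of either could count for the other.

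Itga11 (ID 319480, chromosome 9, 62677855 to 62783979, plus strand), a collagen receptor of fibroblasts, had 18, 4, 11, 2, 1 and 12 counts in oil replicates 1 to 6 and 40, 29, 25, 9, 41 and 13 in CCl4 replicates 1 to 6. CCl4 replicates 1, 2 and 5 lay above every oil library in CPM, and the rest lay among them. The means were 0.16 ± 0.13 and 0.38 ± 0.19 CPM (SD, n = 6 each), a fitted 2.31-fold difference that did not pass (log2 fold change 1.21 ± 0.51 SE, 95% interval 0.11 to 2.31; edgeR adjusted p = 0.0745). It passed without CCl4 replicate 4 (adjusted p = 0.0488), without oil replicate 1 (adjusted p = 0.0327) and with that slope in the model (1.72 on the log2 scale, adjusted p = 0.00675).

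The members spanned a wide range of levels, compared here as CPM per kilobase of the longest annotated transcript. In oil the medians fell from Itgb1 (47.9 CPM per kb) through Itgb5 (19.2), Itga5 (10.1), Itgav (3.70), Itga1 (1.12), Itga8 (0.79), Itgb3 (0.64), Itgb8 (0.092) and Itga11 (0.027) to Itgb6 (0.011). The first 4 did not overlap in oil, whereas Itga1, Itga8 and Itgb3 overlapped as neighbours in this order, and so did Itgb8, Itga11 and Itgb6. In CCl4 the order was the same except that Itga8 (1.40 CPM per kb) stood above Itga1 (1.21), with overlapping ranges, and Itga5 (4.06 to 10.6) came to overlap Itgav (3.50 to 6.90). Both orders in CCl4 depended on the length used: per kilobase of coding sequence Itga1 (3.76) stood above Itga8 (2.56), and Itgav (11.3) above Itga5 (9.36).

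**Figure D4:**
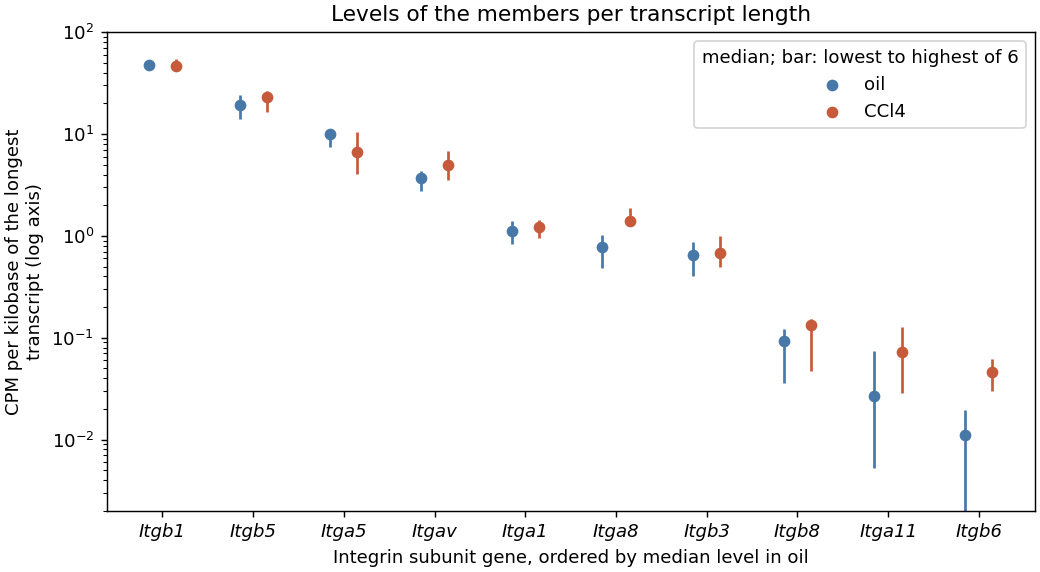
Median level of each member in CPM per kilobase of the longest transcript (vertical log axis) in oil and CCl4, with bars from the lowest to the highest of 6 libraries. Itgb1 is highest and Itgb6 lowest in both groups; the lowest oil value of Itgb6 is 0 and its bar runs off the axis.

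Among the 5 beta chains that can pair with alpha-v, Itgb1 took a median of 70.5% of their summed CPM per kilobase in oil (64.2 to 75.3%) and 67.2% in CCl4 (62.7 to 72.6%). Itgb5 took 28.2% in oil (23.8 to 34.9%) and 31.7% in CCl4 (26.0 to 35.9%). Itgb3 took 0.93 and 0.99%, Itgb8 0.13 and 0.20%, and Itgb6 0.016 and 0.068%. Itgb1 and Itgb5 thus made up nearly all transcripts of these 5 beta chains in each group, and the ranges of both shares overlapped between the groups. Shares of transcripts do not give the make-up of the receptors.

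The other 16 integrin subunits, those of leukocytes, platelets and laminin receptors among them, gave 4 rises and 1 fall among 14 tested. Over all tested genes 20.6% rose and 18.4% fell. The median log2 fold change of these subunits was 0.19. Itgax, the alpha chain of a leukocyte integrin of macrophages and dendritic cells, rose 6.72-fold: it ran from 0.49 to 1.28 CPM in oil and from 4.09 to 6.99 CPM in CCl4, with no overlap (edgeR adjusted p = 1.97e-06). Itga6, a laminin receptor chain, rose 2.58-fold from 3.06 ± 0.79 to 7.94 ± 1.88 CPM (SD, n = 6 each; adjusted p = 9.41e-05). Itgb2, the beta chain of leukocyte integrins, and Itgam, which pairs with it, were the other rises, at 2.03-fold (adjusted p = 2.20e-04) and 1.69-fold (adjusted p = 0.0430); both are named after their values were seen. Itga7, a laminin receptor chain of muscle, fell by 0.44 on the log2 scale, from 13.5 ± 2.37 to 9.97 ± 1.18 CPM (adjusted p = 0.0207), a call lost without oil replicate 6 (adjusted p = 0.0519). Macrophage markers summed to between 125 and 182 CPM in oil and between 225 and 371 CPM in CCl4, with 3 of 5 risen, and their part in the leukocyte chains was not tested.

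Ligands that carry an RGD motif or bind these receptors gave 6 rises and 2 falls among 15 tested of 16. The shares over all tested genes were 20.6% and 18.4%. The median log2 fold change of these ligands was 0.24. Mfge8, a secreted bridge between alpha-v integrins and dying cells, ran from 8.62 to 11.0 CPM in oil and from 50.4 to 75.4 CPM in CCl4 and rose 6.60-fold (edgeR adjusted p = 1.03e-08). Spp1, or osteopontin, ran from 19.8 to 33.5 CPM in oil and from 120 to 183 CPM in CCl4 and rose 5.08-fold (adjusted p = 2.02e-07). In neither did the groups overlap. Npnt, or nephronectin, the main ligand of Itga8, fell while Itga8 rose: it ran from 1.33 to 2.69 CPM in oil and from 0.20 to 0.78 CPM in CCl4, without overlap, a drop of 2.08 on the log2 scale or 4.24-fold (adjusted p = 1.67e-04). The plasma proteins made by hepatocytes did not pass: Fn1, fibronectin, averaged 1332 ± 479 in oil and 1105 ± 439 CPM in CCl4 (adjusted p = 0.435), and Vtn, vitronectin, 2768 ± 422 and 2531 ± 453 CPM (adjusted p = 0.503; SD, n = 6 each).

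Collagens and laminins gave 10 rises and no fall among 15 tested, beside 20.6% rises and 18.4% falls over all tested genes. Their median log2 fold change was 1.45, and all 10 rises were collagen chains. Col1a2, a chain of collagen I, rose 9.02-fold from 17.7 ± 8.21 to 160 ± 51.7 CPM, and Col3a1, of collagen III, 7.19-fold from 35.4 ± 14.4 to 254 ± 37.3 CPM (SD, n = 6 each; edgeR adjusted p = 4.98e-06 and 1.27e-06). None of the 5 laminin chains passed. Beside these collagens, the collagen receptor chains Itga1 and Itga11 gave the values above, neither of which passed. Acta2, smooth muscle actin, a mark of myofibroblasts, rose 6.13-fold from a mean of 5.90 CPM (adjusted p = 4.75e-07).

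**Figure D5:**
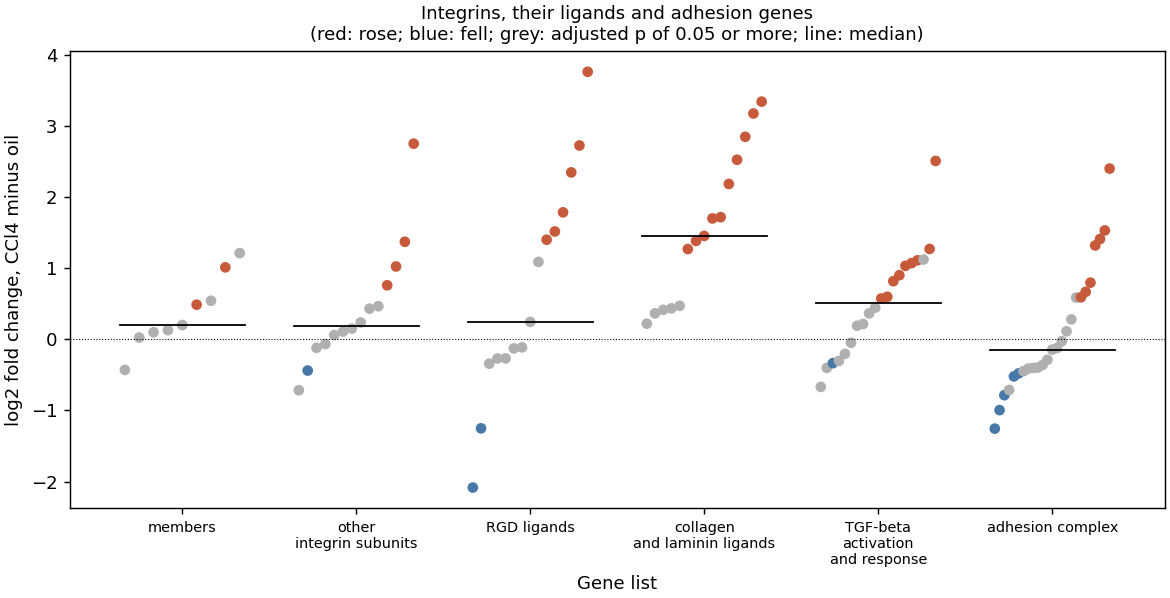
Log2 fold change, CCl4 minus oil (vertical axis), of each tested gene in the members and 5 other gene lists, with red for rises, blue for falls, grey for genes that did not pass and a line at the median. The median is 1.45 for collagens and laminins and 0.20 for the members.

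Genes of TGF-beta activation and response gave 9 rises and 1 fall among 20 tested, beside 20.6% rises and 18.4% falls over all tested genes. Their median log2 fold change was 0.51. Tgfb1, the latent growth factor that alpha-v integrins act on, rose 1.76-fold from 6.17 ± 1.29 to 10.9 ± 2.95 CPM (SD, n = 6 each; edgeR adjusted p = 0.00431). Nrros, which holds latent TGF-beta on macrophages, rose 2.04-fold (adjusted p = 3.41e-05), and Ltbp2, of the latent TGF-beta binding protein family, 5.68-fold (adjusted p = 3.79e-05). Smad4, the shared partner of the receptor-driven SMAD proteins, fell by 0.34 on the log2 scale (adjusted p = 0.0207), a call lost without oil replicate 3 (adjusted p = 0.0512) and without a filter on low counts (adjusted p = 0.0504). Of 2 genes known to respond to TGF-beta, both named after their values were seen, Pmepa1 rose 2.16-fold (adjusted p = 0.00288) and Ccn2 did not pass (adjusted p = 0.753).

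The proteins that link integrin tails to actin gave 7 rises and 5 falls among 25 tested. Over all tested genes the shares were 20.6% and 18.4%, so these counts lie near the background. The median log2 fold change of these genes was -0.15. Parvg and Fermt3, the parvin and kindlin of blood cells, rose 5.27-fold and 2.49-fold (edgeR adjusted p = 3.45e-07 and 7.36e-06). Fermt2, the kindlin of most solid tissues, fell 1.995-fold: it ran from 144 to 194 CPM in oil and from 79.3 to 92.7 CPM in CCl4, without overlap (adjusted p = 1.05e-05). Tln1, talin, which activates integrins from inside the cell, averaged 75.0 ± 20.8 in oil and 56.7 ± 30.6 CPM in CCl4 (SD, n = 6 each; adjusted p = 0.319). Tln1 passed as a fall in limma-voom with quality weights (-0.67, adjusted p = 0.0225).

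The genes most like each member were those with the highest Pearson correlation of log2 CPM over the 12 libraries after the group means were subtracted, which describes how libraries of a group vary together, their length slope included. For Itgav these were Nabp1 (r = 0.97) and Tgfbr1 (r = 0.95), for Itga8 Pde3a (0.92) and Pign (0.91), and for Itga5 Phc3 and Ccdc157 (both 0.98). For Itgb1 they were Prickle2 (0.93) and Cask (0.89), for Itgb5 Adra1b and Aldh4a1 (both 0.97), and for Itgb3 Arhgap21 and Nhsl2 (both 0.95). For Itgb8 they were Cyfip1 (0.94) and Anxa8 (0.93), for Itga1 Ptpn13 (0.95) and Xk (0.94), and for Itga11 Adamts10 (0.95) and Pde7a (0.92). Between the groups, both genes most like Itgav rose. The log2 fold change was 0.71 for Nabp1 and 0.60 for Tgfbr1 (edgeR adjusted p = 0.00553 and 0.0126). Neither of those most like Itga8 passed. Both genes most like Itgb5 fell, by log2 fold changes of -1.22 for Adra1b and -0.90 for Aldh4a1 (edgeR adjusted p = 7.4e-04 and 3.2e-04). Prickle2 rose, Cask, Arhgap21 and Xk fell, and the rest did not pass.

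Total counts ran from 43027778 to 70375852 in oil and from 53602695 to 69203292 in CCl4. Hepatocyte markers were abundant in every library, summing to at least 81920 CPM. Most of that sum was Alb, with means of 78020 CPM in oil and 77060 CPM in CCl4. Of the 5 hepatocyte markers 2 fell and none rose. The log2 fold change was -0.69 for Apob and -1.62 for Tat (edgeR adjusted p = 0.00161 and 8.55e-06). Skeletal muscle markers summed to 226 CPM in CCl4 replicate 1 and 39.2 CPM in CCl4 replicate 3, and to at most 0.75 CPM in the other 10 libraries. Without these 2 libraries Itga8 and Itgav still passed as rises, and Itga5 passed as a fall (-0.66, edgeR adjusted p = 0.0398). Itgb6 also entered the test there, but only through its counts in CCl4, so its call adds nothing to the counts given above.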

How the data were processed

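Whole-liver RNA of 12 mice was sequenced with a stranded total RNA kit, per the labels' protocols. The authors deposited whole-number read counts per gene without normalisation, and the 12 columns of the series table equalled the sample files. The build was GRCm38, per the submitters' processing notes; which aligner, counting program and annotation they used, and whether strand was counted, is something the sources used here do not give, and overlapping genes may share reads. Of 36528 gene IDs, 31049 matched a RefSeq symbol (GRCm38.p6), and IDs without one took 2.19% of counts.

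Groups came from the treatment labels; replicate numbers follow sample order and pair nothing. No pair of replicates agreed within sampling noise (lowest chi-square per gene 49.4). The test was run in R 4.3.3 with edgeR 4.0.16 after filterByExpr and TMM scaling (robust quasi-likelihood F test, threshold 0.05); a prior count of 2 entered log2 CPM, and the SE is the log2 fold change divided by the square root of F. Transcript lengths covered 91.3% of tested genes. The permutation test used SciPy 1.17.1. Alternatives used limma 3.58.1, DESeq2 1.42.0, other scalings and filters, thinning, a length-slope covariate and leaving out libraries; 2 were added after seeing the data. The procedure was tested on simulated data.

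The members and lists were chosen with earlier results of these data known, so no list was tested as a set. Named genes are all members; in each list the 2 genes with the smallest p and the called gene with the smallest p against the list's majority; 8 fixed genes (Tgfb1, Fn1, Vtn, Npnt, Spp1, Tln1, Fermt2 and Acta2); and for each tested member the 2 most like it, among genes whose mean log2 CPM was 0 or more. Others are named after their values were seen. At these depths a gene far under 1 CPM rests on few counts, and intervals cover the spread between these livers only.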

Additional observations from a re-analysis of the deposited data

How the results depend on the processing

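The number of members called was 2 with all libraries and ran from 1 to 3 over the fits without 1 library; it was 1 without CCl4 replicate 2 or 6. Itgav was lost there and without CCl4 replicate 3 or oil replicate 1, 2, 3 or 4, where the count stayed at 2 or 3 because Itgb6 entered the test, as it did in 7 of these 12 fits. It was 4 without the 2 libraries that held skeletal muscle transcripts, CCl4 replicates 1 and 3, an alternative chosen after seeing the data, and 3 of these 4 were tested with all libraries. It was 3 without the library of lowest length slope in each group, CCl4 replicate 6 and oil replicate 5, also chosen after seeing the data, and 2 of these 3, Itgav and Itga8, were called with all libraries. In each such setting Itgb6 passed the filter only through its CCl4 counts, so its call is not independent support. Over 216 values of the 10 members under alternatives, 192 kept direction and side of the threshold, 8 lost a call, 8 gained one and 8 changed sign. The sign changes were of genes that did not pass: Itgb1 was -0.0016 on the log2 scale in DESeq2 and ran from -0.0415 to 0.0463 without 1 library, at -0.0198 without CCl4 replicate 3, -0.0415 without CCl4 replicate 5, -0.0085 without oil replicate 1 and -0.0014 without oil replicate 2. Itgb3 was -0.0741 in limma-voom and ran from -0.023 to 0.2204 without 1 library, with -0.023 without CCl4 replicate 5. Itga1 was -0.0106 without the muscle libraries, and Fn1 was 0.0385 in the fit with the length slope. The causes were not tested. Itga7 and Smad4 also lost the call under upper-quartile scaling (adjusted p = 0.0730 and 0.106) and without the muscle libraries (0.0571 and 0.0567). Per kilobase of exon union or of coding sequence, the oil rank of 2 members changed in each case; per kilobase of coding sequence the CCl4 order of Itga1 and Itga8 and that of Itgav and Itga5 were also exchanged. Of the 18 genes named as most like a member, 6 were also among the 2 most alike by Spearman correlation. Over all genes, rises were 52.8% of calls with TMM but 67.3% after upper-quartile scaling, which moved the median over all genes from 0.01 to 0.13; Itgav and Itga8 passed as rises under both. Calls over all genes ran from 5190 with the stricter filter to 8738 in limma-voom. No paired analysis was possible because the labels give no replicate numbers. Depth limits Itgb6, Itga11 and Itgb8, which rest on at most 107 counts in a library.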
